A study of Mus musculus with 49 samples.

Results

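Intestine-like spherical organoids grown from dedifferentiated hepatocytes (dediHep-SOs, here SOs) were compared with the dediHeps kept as a monolayer, gene by gene over the whole transcriptome. The comparison took all libraries that the sample labels give to these groups, which were 3 SO and 5 monolayer libraries of the 49 in the series. Of 46078 gene identifiers in the table, 11470 had enough counts in these 8 libraries to be tested. The question was which genes the cells gained and which they lost when the same kind of cell was moved from a dish surface into organoid culture.

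The labels give wild-type C57BL/6J mice as the source of both groups. Hepatocytes were isolated from adult livers at 10 weeks of age by collagenase digestion and centrifugation, and the methods name male donors. Monolayer dediHeps are the progenitor-like cells that these hepatocytes became on type I collagen in a medium with EGF at 20 ng/mL. For SOs, dediHeps were embedded in Matrigel and given EGF, Noggin, R-spondin1, Wnt3a and CHIR99021, an inhibitor of glycogen synthase kinase 3. Noggin blocks BMP ligands, and the last 3 factors activate Wnt signalling. Only a small number of embedded cells formed SOs, which were then passaged, so an SO library can descend from few cells. Matrix, medium, geometry and passage all differed between the groups at once, and their parts in any difference cannot be told apart. RNA was prepared with either of 2 kits, and which library had which is not given in the sources used here.

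In the intestine, stem cells at the crypt base are maintained by Wnt and R-spondin signals and give rise to absorptive enterocytes, mucus-making goblet cells, antimicrobial Paneth cells, hormone-making enteroendocrine cells and chemosensory tuft cells. Cdx2 is the transcription factor that sets intestinal identity, while Hnf4a serves both liver and gut. Hepatocytes secrete most plasma proteins and carry the enzymes of urea synthesis, bile acid synthesis and drug metabolism, and during dedifferentiation they lose part of this programme and gain mesenchymal genes.

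The 8 libraries were CEL-Seq2 libraries, which count transcript 3′ ends by molecular identifiers, and held 1631842 to 2931078 counts with 15171 to 16748 genes detected. A count of 0 in a library allows a level of up to 1.02 to 1.84 CPM (counts scaled to a library total of 1e6), for counting error only. Total counts and genes detected overlapped between groups (exact permutation tests, two-sided, p = 0.643 and 0.5). Ribosomal protein genes took 2.98% ± 0.0248 of counts in SOs and 2.07% ± 0.279 in monolayers (SD, n = 3 and 5; exact permutation test, p = 0.0357, smallest possible 0.0179).

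Several libraries stood apart or went against their labels. Monolayer 1 held 738 counts of Xist, the transcript of the inactive X chromosome, and no count of 4 Y-linked genes, although the methods name male donors. SO 1, which carries the same culture code as monolayer 1, held 0 counts of Xist and 317 of Y-linked Ddx3y. Monolayer 2 and SO 3, which share a code, held no count of Xist or Ddx3y. Monolayer 3 and SO 2, which share another, held 600 and 253 counts of Ddx3y and 0 of Xist. Over all genes, Spearman's rho between monolayer 1 and the other monolayers was 0.756 to 0.853, against 0.873 to 0.922 among those others. SOs 1 and 2 were the most alike (0.970) and still differed by more than sampling noise, and SO 3 stood at 0.863 and 0.894 from them. Counts of calls are therefore given also without monolayer 1 and SO 1 and with SOs 1 and 2 summed to 1 library, both chosen after seeing the data.

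A gene was called changed when edgeR's quasi-likelihood F-test gave a Benjamini-Hochberg adjusted p under 0.1 and the log2 fold change was over 2 in size, which are the thresholds the study used. Every adjusted p below is from this test over the 11470 genes, and ± after a log2 fold change is its standard error. In SOs 472 genes were called higher (4.12%) and 533 lower (4.65%), together 8.76% of genes tested. At an adjusted p under 0.1 and any fold, 1851 genes passed (16.1%), 909 higher and 942 lower. All SOs lay above all monolayers for 10.4% of tested genes and below for 10.2%, and among the called genes this held for 452 of 472 and 463 of 533. The median log2 fold change of all genes was -0.05. A gene with no count in 1 group passed the filter only through the other and could be called in 1 direction only. This held for 63 of the higher and 57 of the lower calls. Genes with few counts in 1 group were limited likewise and are not in these numbers. Without monolayer 1 and SO 1 the calls were 431 higher and 432 lower, and with SOs 1 and 2 summed they were 419 and 399. No called gene changed sign under any of these settings. Since the labels do not say that libraries came from separate animals, these p-values measure the spread between the libraries.

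**Figure D1:**
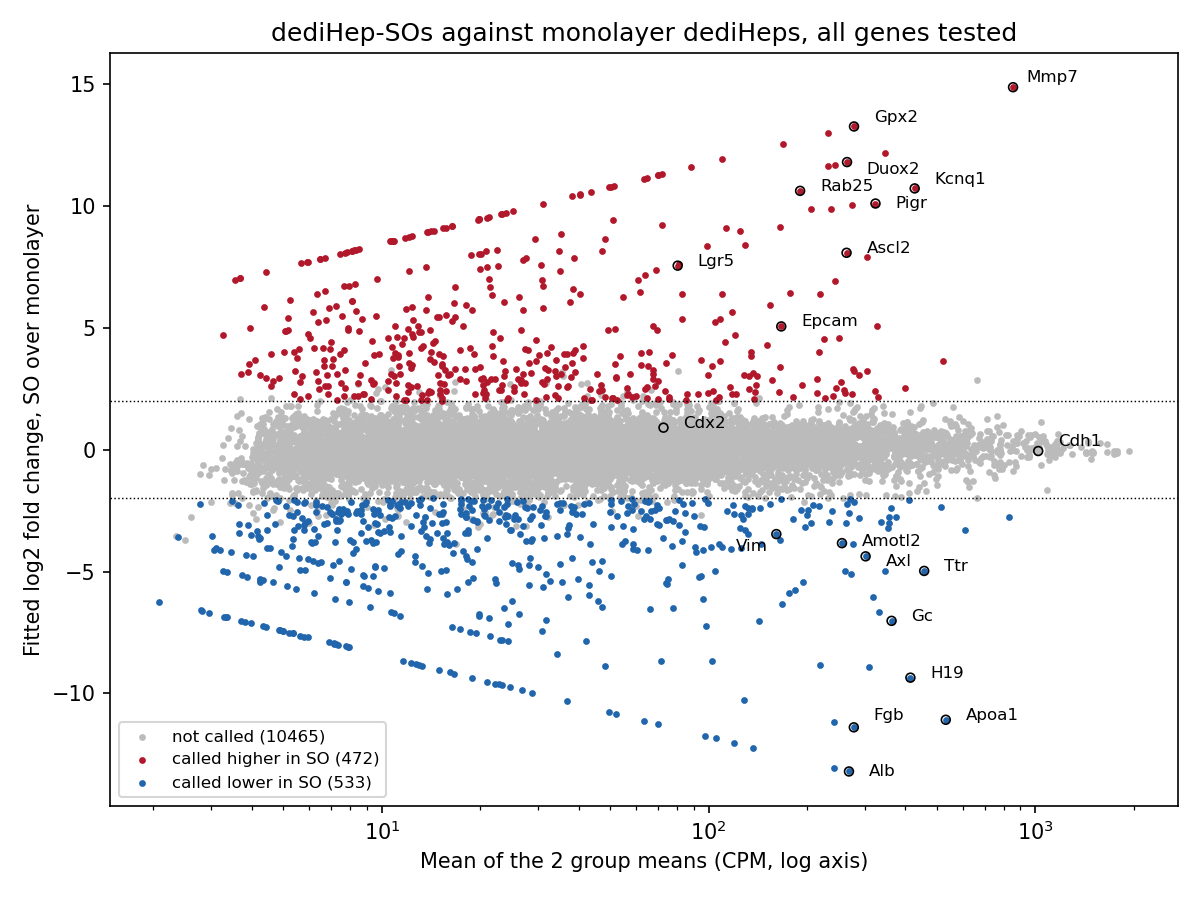
Fitted log2 fold change of each tested gene (SO over monolayer, vertical axis) against the mean of the group means in CPM (log axis), with 472 genes called higher in red, 533 called lower in blue and dotted lines at the fold threshold. Straight rows of points at the upper and lower edges are genes with no count in one group, whose fitted fold depends on the prior count. Mmp7 stands highest and Alb lowest among the named genes, while Cdx2 and Cdh1 lie between the lines.

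The promoters of 4 called genes are shown because each holds one of the motifs searched, for which they were picked. Each run is the 250 bases before the gene start, 5′ to 3′ on the gene's strand, from RefSeq on GRCm38.p6. Capitals mark a match to the HNF1 motif GTTAAT in the albumin and vitamin D-binding protein genes, to the TCF/LEF motif ATCAAAG on the reverse strand in the Wnt target Sp5, and to the CDX motif TTTATNG in the glutathione peroxidase gene Gpx2. The first base of the match lies at -32 from the gene start in Alb, -52 in Gc, -104 in Sp5 and -129 in Gpx2. Sequences were read at chr5:90460620-90460869 (Alb, plus strand), chr5:89457899-89458148 (Gc, minus strand), chr2:70474673-70474922 (Sp5, plus strand) and chr12:76795555-76795804 (Gpx2, minus strand).
Alb: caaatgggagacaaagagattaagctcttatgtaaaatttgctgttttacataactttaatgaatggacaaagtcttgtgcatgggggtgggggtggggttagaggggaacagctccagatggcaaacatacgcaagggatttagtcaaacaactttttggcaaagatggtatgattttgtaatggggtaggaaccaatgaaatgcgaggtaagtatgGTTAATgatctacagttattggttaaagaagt
Gc: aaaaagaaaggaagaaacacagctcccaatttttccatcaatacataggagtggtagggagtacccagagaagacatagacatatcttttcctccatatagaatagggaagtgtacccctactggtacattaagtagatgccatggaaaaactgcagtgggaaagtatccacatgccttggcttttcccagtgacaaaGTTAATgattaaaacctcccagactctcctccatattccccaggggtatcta
Sp5: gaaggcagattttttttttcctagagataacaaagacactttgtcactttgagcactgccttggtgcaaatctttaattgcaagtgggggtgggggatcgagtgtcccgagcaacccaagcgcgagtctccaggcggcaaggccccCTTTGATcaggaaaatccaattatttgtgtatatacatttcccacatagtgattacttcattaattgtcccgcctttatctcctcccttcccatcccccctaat
Gpx2: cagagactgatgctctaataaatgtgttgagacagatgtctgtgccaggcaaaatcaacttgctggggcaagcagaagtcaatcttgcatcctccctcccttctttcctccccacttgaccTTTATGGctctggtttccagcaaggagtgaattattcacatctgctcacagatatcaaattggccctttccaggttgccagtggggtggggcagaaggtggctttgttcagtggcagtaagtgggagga
Of the 11470 tested genes, 8255 had such a window by symbol, 336 of the genes called higher and 405 of those called lower. The HNF1 motif, searched on both strands, stood in 10.9% of genes called lower, 2.98% of those called higher and 4.88% of all. TCF/LEF matches ran the other way, with 4.76% of genes called higher, 2.22% of those called lower and 2.68% of all. The CDX motif was in 10.7% of genes called higher, 10.4% of those called lower and 7.37% of all. HNF4 (AAAGTCC) matched 3.87%, 7.65% and 4.08%, and TEAD (GGAATG) 18.2%, 15.6% and 12.7%, in that order. These shares are a description, and a match is a run of letters and not a measured binding site.

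Intestinal stem cell markers and Wnt target genes were gained. Of 29 listed genes 20 were tested, 10 were called higher and none lower, with a median log2 fold change of 1.99 beside -0.05 for all genes. Members with few monolayer counts, among them Lgr5, Ascl2, Ephb2, Ephb3 and Axin2, passed the filter only through SOs. They could not be called lower, so share and median are no measure of direction. Lgr5, the R-spondin receptor that marks crypt base stem cells, was at 0, 0.544, 1.65, 0.852 and 0.512 CPM in monolayers 1 to 5 and 144, 128 and 208 CPM in SOs 1 to 3. Its SO mean was 160.1 ± 42.2 CPM against 0.712 ± 0.607 (SD), a log2 fold change of 7.54 ± 0.52, edgeR adjusted p = 1.26e-05. The SOs all lay far above every monolayer, which held 9 Lgr5 counts in all.

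Ascl2, the transcription factor that controls the stem cell state, was at 0, 1.63, 1.32, 5.54 and 0.512 CPM in monolayers 1 to 5 and 556, 632 and 392 CPM in SOs 1 to 3 (log2 fold change of 8.07 ± 0.66, edgeR adjusted p = 3.3e-05). Ephb3, an ephrin receptor that positions cells along the crypt, was at 4.42, 1.63, 5.94, 0.426 and 0 CPM in monolayers 1 to 5 and 222, 200.2 and 228 CPM in SOs 1 to 3 (log2 fold change 6.37 ± 0.71, edgeR adjusted p = 0.00027). Its partner Ephb2 had 3 counts in all monolayers and 88.3, 74.1 and 68.5 CPM in the SOs, a ratio of 281 with a 95% counting interval of 95.7 to 1368 (edgeR adjusted p = 3.3e-05). Groups did not overlap for any of these receptors or for Ascl2.

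Feedback targets of Wnt signalling were highest in SO 3. Axin2, a scaffold of the β-catenin destruction complex, was at 16.1, 16.8 and 48.98 CPM in SOs 1 to 3 and had 3 counts in all monolayers, a ratio of 93.6 with a 95% counting interval of 31.5 to 458 (edgeR adjusted p = 0.00162). Sp5 was at 2.53, 1.09, 0, 0 and 0 CPM in monolayers 1 to 5 and 8.06, 9.74 and 68.5 CPM in SOs 1 to 3 (log2 fold change of 5.44 ± 1.08, edgeR adjusted p = 0.00834). Rnf43, which removes Wnt receptors from the surface, was at 16.4, 13.1, 16.5, 13.6 and 17.9 CPM in monolayers 1 to 5 and 57.8, 55.7 and 89.97 CPM in SOs 1 to 3 (log2 fold change of 2.12 ± 0.31, edgeR adjusted p = 0.00125), and without SO 3 its log2 fold change was 1.87. Tcf7 was called by the rule while its groups overlapped, and without SO 3 its log2 fold change was 1.27. Without SO 3 the list held 7 calls, and without monolayer 1 it held 12.

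Other stem cell genes gave no call. Olfm4 had no monolayer count and 7.36, 1.08 and 3.499 CPM in SOs, and Smoc2 only 5 counts, all in SO 3, so neither was tested. Myc was at 291, 11.4, 32.3, 8.95 and 2.56 CPM in monolayers 1 to 5 and 2.803, 3.79 and 40.5 CPM in SOs 1 to 3, with overlapping groups and the highest value in monolayer 1 (log2 fold change -2.14 ± 1.45, edgeR adjusted p = 0.393). Lgr4, a sister receptor of Lgr5, overlapped between groups with SO 3 at 146 CPM and SOs 1 and 2 near the monolayers. Cd44 lay above all monolayers in all SOs (log2 fold change 1.06 ± 0.35, edgeR adjusted p = 0.0798) but below the fold threshold.

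**Figure D2:**
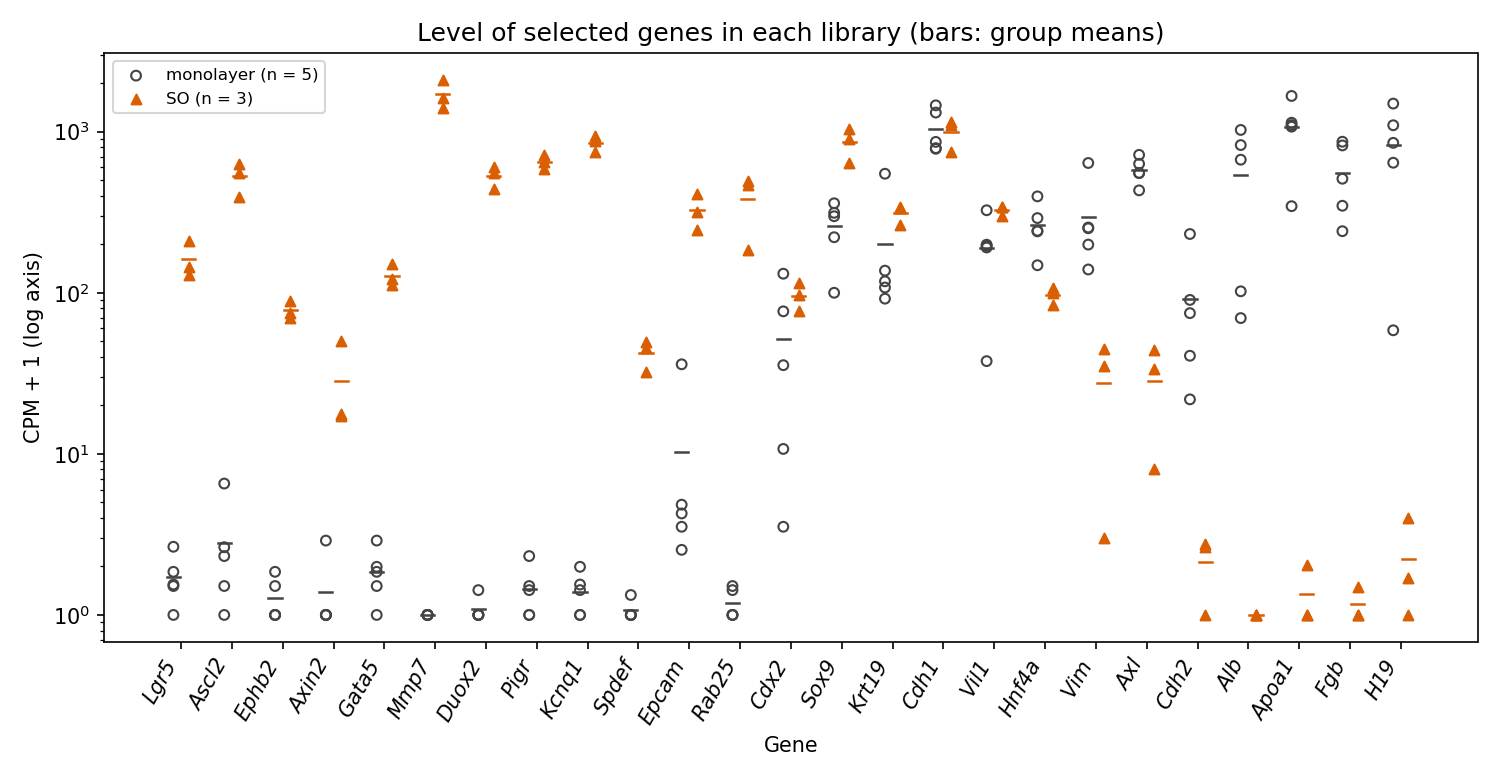
Level of selected genes in each library (CPM + 1, log axis), with open circles for the 5 monolayers, triangles for the 3 SOs and bars for group means. Stem cell, defence and secretory genes from Lgr5 to Rab25 are separated between groups, Cdx2, Krt19, Cdh1 and Vil1 overlap, and mesenchymal and hepatocyte genes from Vim to H19 are lower in SOs.

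Transcription factors of the intestine changed unevenly. Of 24 listed 16 were tested, 4 were called higher and 1 lower, with a median log2 fold change of 0.61. Without SO 2, without monolayer 4, or with SOs 1 and 2 summed, 2 were called higher. Cdx2 was at 2.53, 75.7, 130.3, 34.5 and 9.73 CPM in monolayers 1 to 5 and 95.7, 75.8 and 114 CPM in SOs 1 to 3, so that the monolayers spanned the range from near 0 to above every SO (log2 fold change 0.90 ± 0.84, edgeR adjusted p = 0.545). Its relative Cdx1 had 1 count in each group. Hnf4g, the gut paralogue of Hnf4a, had no monolayer count and 9 SO counts and was not tested. Of 24 genes of several kinds that the study names for dediHep-SOs, 16 were tested, 4 were called higher and 4 lower (median 0.42), and that list is not independent of these libraries.

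Gata5, an endodermal zinc finger factor, was at 1.895, 0, 0.9898, 0.852 and 0.512 CPM in monolayers 1 to 5 and 110.0, 121 and 149.5 CPM in SOs 1 to 3 (log2 fold change of 7.15 ± 0.52, edgeR adjusted p = 1.82e-05), with no overlap. Klf5, which supports crypt proliferation, was at 46.8, 52.3, 65.7, 39.2 and 59.4 CPM in monolayers 1 to 5 and 234, 295 and 138 CPM in SOs 1 to 3 (log2 fold change of 2.08 ± 0.31, edgeR adjusted p = 0.00162) and fell just under the fold threshold without SO 2 (1.84) or monolayer 4 (1.98). Elf3 was called higher with a log2 fold change of 2.02 ± 0.66 and an edgeR adjusted p of 0.0779, and this call was lost without any 1 SO or without monolayer 2, 4 or 5. Sox9, expressed in stem cells and bile ducts, was at 298, 312, 98.98, 358 and 220.2 CPM in monolayers 1 to 5 and 636, 1044 and 894 CPM in SOs 1 to 3, higher in every SO but under the fold threshold (1.74 ± 0.37, edgeR adjusted p = 0.0117). Creb3l3, a regulator of lipoprotein genes in liver and gut, was the 1 factor called lower, at 5.69, 82.7, 85.4, 129 and 62.5 CPM in monolayers 1 to 5 and 0.701, 0 and 2.499 CPM in SOs 1 to 3 (log2 fold change -6.04 ± 1.09, edgeR adjusted p = 0.00469).

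Genes of secretory cells were gained in part. For goblet cells 4 of 6 tested genes (14 listed) were called higher and none lower, with a median log2 fold change of 2.87. The 4 called genes had few monolayer counts and passed the filter only through SOs, so share and median are no measure of direction. Spdef, the goblet cell transcription factor, had 1 monolayer count and 48.7, 31.4 and 44.5 CPM in the SOs, a ratio of 459 with a 95% counting interval of 81.7 to 18180 (edgeR adjusted p = 2.5e-05). Spink4 had 2 monolayer counts and 96.01, 74.1 and 38.5 CPM in SOs (edgeR adjusted p = 3.6e-05), and Fcgbp and Ramp1 rose with log2 fold changes of 3.07 ± 0.54 and 2.54 ± 0.50. Muc2, the main intestinal mucin, was at 0.632, 2.72, 1.98, 2.13 and 1.54 CPM in monolayers 1 to 5 and 23.1, 32.5 and 3.499 CPM in SOs 1 to 3, higher in every SO and lowest of the SOs in SO 3, and did not pass the filter. Without SO 3, 8 genes of the list were tested and 6 called higher. Zg16 and Agr2 had no monolayer count and were uneven among SOs, with 22.1, 23.8 and 0.4998 CPM for Zg16 and 1.75, 3.25 and 55.5 CPM for Agr2. Tff3 was not higher in SOs alone. Groups had an edgeR adjusted p of 0.123, and of single libraries left out it was called only without monolayer 3. Every SO exceeded the monolayers, but dediHep aggregates held 868 ± 363 CPM against 65.2 ± 28.6 in SOs (SD, scaled over all 49 libraries, no test).

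Of 15 Paneth cell genes 3 were tested and 2 were called higher. As 14 of the 15 had no monolayer count, the 2 passed the filter only through SOs and could not be called lower. Mmp7, the protease that activates Paneth cell defensins, had no count in any monolayer and 1408, 2099 and 1617 CPM in SOs, at least 5951-fold higher (edgeR adjusted p = 1.22e-05). Its counts of 3235 to 4018 were near the 4096 identifiers that 6 bases allow, so these levels are underestimates. Itln1 had no monolayer count and 18.6, 15.2 and 12.5 CPM in SOs, at least 56.7-fold higher (edgeR adjusted p = 0.00105). Lyz1, the defining Paneth lysozyme, had 7 counts, all in SO 3. None of the 39 alpha defensin genes had a count in any of the 8 libraries.

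Other lineages gave little signal. Of 19 enteroendocrine genes 1 was tested, Nts, which was called lower, and the defining markers Chga and Chgb had 2 and 1 counts over all 8 libraries. Nts had no SO count, and without monolayer 1, 2 or 5 it did not pass the filter. Of 11 tuft cell genes 2 were tested and 1 was called higher. Dclk1, used as a tuft cell marker, was that gene and was at 3.16, 2.72, 0.6599, 2.98 and 0.512 CPM in monolayers 1 to 5 and 174, 198 and 119.5 CPM in SOs 1 to 3 (log2 fold change of 6.37 ± 0.52, edgeR adjusted p = 3.3e-05), while Trpm5, the tuft cell channel, had 5 counts, all in SOs.

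Enterocyte genes went both ways. Of 38 brush border, digestion and uptake genes 17 were tested, 3 were called higher and 3 lower, with a median log2 fold change of 0.22 that was below 0 without any 1 SO, without monolayer 1 or 5, and with SOs 1 and 2 summed. Vil1, the actin bundler of microvilli, was at 36.6, 190.0, 324, 198 and 195 CPM in monolayers 1 to 5 and 339.9, 298 and 341 CPM in SOs 1 to 3 (edgeR adjusted p = 0.348), and monolayer 1 alone lay low. The adhesion protein Cdh17 and the lectin Lgals4 overlapped between groups, with log2 fold changes of 0.31 ± 0.60 and 1.91 ± 1.04. Sis, the disaccharidase of mature enterocytes, had no count in any library, and Lct had 2 and Fabp2 15, all in monolayers.

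Eps8, which caps microvillar actin, was at 0, 17.96, 45.5, 16.2 and 25.6 CPM in monolayers 1 to 5 and 179, 179 and 175 CPM in SOs 1 to 3 (log2 fold change of 3.05 ± 0.75, edgeR adjusted p = 0.0243). The peptidases Dpp4 and Ace rose by log2 fold changes of 5.06 ± 0.75 and 3.17 ± 0.55. Fabp1, a fatty acid carrier of liver and gut, was at 3.79, 45.7, 36.6, 22.6 and 20.99 CPM in monolayers and had no SO count, at least 61.3-fold lower (edgeR adjusted p = 0.00321). Apoa4 and Mttp, both of lipoprotein assembly, were the other genes called lower, with 1 SO count for Apoa4 and overlapping groups for Mttp. Of the 3 lower calls 1 was left without SO 2, monolayer 2 or monolayer 4.

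Mucosal defence held some of the clearest gains. Of 21 listed genes 15 were tested, 7 were called higher and 3 lower, with a median log2 fold change of 1.25. The median was 4.89 without monolayer 3 and 5.25 without monolayer 4, with 14 genes tested and the same numbers called. Duox2, which makes hydrogen peroxide at the mucosal surface, had 1 monolayer count and 442, 549 and 599.8 CPM in SOs, a ratio of 5574 with a 95% counting interval of 999.7 to 220200. Its edgeR adjusted p of 1.45e-06 was shared with Kcnq1 as the smallest of all genes. Its maturation factor Duoxa2 had no monolayer count and 37.1, 31.9 and 13.5 CPM in SOs.

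Pigr, which carries IgA across the epithelium, was at 0, 0, 1.32, 0.426 and 0.512 CPM in monolayers 1 to 5 and 715, 643 and 585 CPM in SOs 1 to 3 (log2 fold change of 10.09 ± 0.53, edgeR adjusted p = 2.78e-06). It was higher still in freshly isolated hepatocytes, at 1491 ± 403 CPM against 597 ± 57.5 in SOs (SD, scaled over all 49 libraries, no test). Sftpd, a collectin first known from lung, was at 0.632, 0, 0, 0.852 and 0.512 CPM in monolayers 1 to 5 and 466, 390.2 and 374 CPM in SOs 1 to 3 (log2 fold change of 9.88 ± 0.54, edgeR adjusted p = 3.25e-06). Pglyrp1, a peptidoglycan binding protein, was at 0, 0, 1.32, 0.426 and 0 CPM in monolayers 1 to 5 and 493, 609 and 314 CPM in SOs 1 to 3 (log2 fold change of 9.88 ± 0.63, edgeR adjusted p = 8.89e-06). None of these overlapped between groups.

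The antibacterial lectins Reg3b and Reg3g had no monolayer count and were highest in SO 3, with 24.2, 12.99 and 351 CPM for Reg3b and 102, 112 and 315 CPM for Reg3g. The chemokine Cxcl1 was called lower, at 367, 248, 156, 107 and 234 CPM in monolayers 1 to 5 and 34.3, 48.2 and 43.5 CPM in SOs 1 to 3 (log2 fold change -2.40 ± 0.43, edgeR adjusted p = 0.004). Saa3 and Ccl20 were called lower on uneven monolayers, with monolayer 4 at 439 CPM for Saa3 and monolayer 1 at 892 CPM for Ccl20, and both calls were lost without any 1 SO.

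Several ion transport genes were gained: of 21 listed 11 were tested, 7 were called higher and none lower, with a median log2 fold change of 2.27. Kcnq1, Kcne3, Kcnn4, Aqp1 and Car2 were low in monolayers and passed the filter only through SOs, unlike Slc12a2. Share and median are therefore no measure of direction. Kcnq1, a potassium channel of secreting epithelia, was at 0, 0.544, 0.9898, 0.426 and 0 CPM in monolayers 1 to 5 and 747, 877 and 937 CPM in SOs 1 to 3 (log2 fold change of 10.71 ± 0.49, edgeR adjusted p = 1.45e-06). Its regulatory subunit Kcne3 was at 9.48, 1.63, 9.24, 3.41 and 0.512 CPM in monolayers 1 to 5 and 179, 234 and 497 CPM in SOs 1 to 3 (log2 fold change 5.93 ± 0.69, edgeR adjusted p = 0.000337). Kcnn4, a calcium-gated potassium channel, had no monolayer count and 131, 79.01 and 96.97 CPM in SOs, at least 382-fold higher. Each SO exceeded each monolayer for these 3 channel genes.

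Aqp1, a water channel also used as a bile duct marker, was at 0, 1.63, 12.9, 1.705 and 1.54 CPM in monolayers 1 to 5 and 727, 566 and 153 CPM in SOs 1 to 3 (log2 fold change of 6.92 ± 0.89, edgeR adjusted p = 0.000658). Slc12a2, the chloride importer, was at 157, 95.8, 34.97, 89.1 and 52.7 CPM in monolayers 1 to 5 and 269.8, 318 and 519 CPM in SOs 1 to 3 (log2 fold change of 2.11 ± 0.44, edgeR adjusted p = 0.0109) and dropped below the fold threshold without SO 3 (1.78) or monolayer 3 (1.90). Carbonic anhydrase Car2 was at 139 CPM in SO 3 against 11.2 and 9.20 in SOs 1 and 2, and its call was lost without SO 3. The chloride channel Cftr had no monolayer count and 3.15, 3.79 and 26.99 CPM in SOs and did not pass the filter.

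Some genes of other endodermal epithelia were also higher than in monolayers. Of 22 listed 7 were tested and 5 called higher (median log2 fold change 3.94), beside 4.12% of all tested genes. Of the 22, 14 had no monolayer count, 9 of them no count at all. Genes without a monolayer count pass the filter only through SOs, so share and median are no measure of direction. Gkn3 of gastric neck cells had no monolayer count and 72.5, 60.1 and 298 CPM in SOs, at least 489-fold higher, and Tff2, a trefoil peptide of the stomach, had none and 42.05, 41.1 and 34.99 CPM, at least 142-fold higher. Cela1, a pancreatic elastase, was at 1.895, 1.09, 3.63, 14.9 and 1.02 CPM in monolayers 1 to 5 and 68.7, 79.01 and 69.5 CPM in SOs 1 to 3 (log2 fold change 3.94 ± 0.71, edgeR adjusted p = 0.00471). Freshly isolated hepatocytes also held it, at 85.1 ± 53.6 CPM against 66.8 ± 5.11 in SOs (SD, scaled over all 49 libraries, no test). Ctse, an aspartic protease of stomach, was called higher with an edgeR adjusted p of 0.0535, lost without SO 2, SO 3 or monolayer 2. Pgc, the pepsinogen C gene, was at 1.05, 1.08 and 135 CPM in SOs and was carried by SO 3.

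Hepatocyte plasma proteins were lost. Of 30 listed genes 26 were tested and 20 were called lower, none higher, with a median log2 fold change of -7.15, or -6.28 with the 6 genes lacking SO counts set at their bounds. In every leave-out, 18 to 20 were called lower. In bulk RNA, fewer cells of a type and less RNA per cell cannot be told apart. Alb was at 101, 669, 68.6, 825 and 1024 CPM in monolayers 1 to 5 and had no count in any SO, at least 1150-fold lower (edgeR adjusted p = 0.00224). The monolayers themselves spread widely, with 1 and 3 far below the others.

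Apoa1, the main protein of high density lipoprotein, was at 344, 1135, 1073, 1098 and 1665 CPM in monolayers and had 3 SO counts, a monolayer to SO ratio of 2433 with a 95% counting interval of 832 to 11800 (edgeR adjusted p = 3.3e-05). Fibrinogen chains Fga and Fgb each had 1 SO count against 240.1, 865, 346, 820.4 and 509 CPM for Fgb in monolayers (edgeR adjusted p = 5.99e-05 and 2.92e-05). Gc, the vitamin D-binding protein, gave the smallest p of the genes called lower, at 981, 538, 439, 1032 and 611 CPM in monolayers 1 to 5 and 4.56, 7.58 and 4.499 CPM in SOs 1 to 3 (log2 fold change of -7.02 ± 0.49, edgeR adjusted p = 1.26e-05). No SO reached the lowest monolayer for any of them.

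Ttr, the thyroid hormone carrier, was at 358, 1098, 605, 1046 and 1319 CPM in monolayers 1 to 5 and 40.6, 28.1 and 15 CPM in SOs 1 to 3 (log2 fold change of -4.98 ± 0.56, edgeR adjusted p = 0.00027). Apob was called lower with a log2 fold change of -4.11 ± 0.56. Ahsg, Serpina1b and Serpina1c had no SO count and were at least 1041-fold, 627-fold and 544-fold lower, although the Serpina1 genes are near-identical copies whose reads can be split. Trf, the iron carrier, was an exception at 464, 1273, 520.0, 1400 and 1211 CPM in monolayers 1 to 5 and 561, 615 and 703 CPM in SOs 1 to 3 (log2 fold change -0.64 ± 0.39, edgeR adjusted p = 0.337). Retinol carrier Rbp4 and complement C3 also overlapped between groups and were not called.

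Few metabolic enzymes of hepatocytes could be tested. Of 33 listed 7 passed the filter, 8 had no count in any of these libraries and 5 were called lower, with a median log2 fold change of -3.07. The defining markers Cps1, of the urea cycle, and Asgr1, the asialoglycoprotein receptor, held 85 and 12 monolayer counts and 1 and 0 SO counts. Fah, of tyrosine breakdown, was called lower at 16.4, 48.99, 69.3, 77.99 and 123 CPM in monolayers 1 to 5 and 13.3, 7.58 and 2.499 CPM in SOs 1 to 3 (log2 fold change -3.07 ± 0.70, edgeR adjusted p = 0.0169). These calls were fragile: without SO 1 or SO 2 the list held 1 lower call, and without monolayer 2 or 3 it held 3. Without SO 3, 11 were tested and 7 called lower, with a median of -4.66. Ass1, another urea cycle enzyme, was higher in every SO at 13.9, 14.2, 14.8, 17.9 and 17.4 CPM in monolayers 1 to 5 and 77.4, 49.8 and 47.98 CPM in SOs 1 to 3 (log2 fold change 1.90 ± 0.31, edgeR adjusted p = 0.00248), under the fold threshold.

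Cytochromes P450 of families 1 to 4 followed, with 6 of 16 tested genes called lower and 1 higher (80 listed, median -2.35). Cyp2c70 of bile acid hydroxylation had no SO count, at least 62.1-fold lower, and Cyp2d26, Cyp2d22, Cyp4v3, Cyp2c68 and Cyp4a12a were the others called lower. Paralogues in this family can share reads. Cyp1b1 was the 1 called higher, at 0, 0.544, 2.31, 0.426 and 0 CPM in monolayers 1 to 5 and 102, 152 and 232 CPM in SOs 1 to 3 (log2 fold change of 7.59 ± 0.69, edgeR adjusted p = 7.64e-05), separated in all libraries. None of the 21 Mup genes was tested.

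Of 15 tested hepatocyte transcription factors (19 listed) 2 were called lower and 1 higher, with a median log2 fold change of -0.93 that was -0.28 without monolayer 4 and -0.14 with the culture code as a replicate block. These shares were 13.3% lower and 6.67% higher, beside 4.65% and 4.12% of all tested genes. Hnf4a was at 147, 239.5, 396, 242 and 289.8 CPM in monolayers 1 to 5 and 106, 83.3 and 98.97 CPM in SOs 1 to 3, lower in every SO (log2 fold change -1.45 ± 0.34, edgeR adjusted p = 0.0191) but within the fold threshold. Foxa2 was likewise lower in every SO (-1.29 ± 0.34, edgeR adjusted p = 0.0331). Prox1 was at 99.2, 208, 128, 316 and 285 CPM in monolayers 1 to 5 and 6.31, 14.1 and 18.99 CPM in SOs 1 to 3 (log2 fold change of -3.99 ± 0.56, edgeR adjusted p = 0.000982).

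Nr1h4, the bile acid receptor, was at 104, 88.7, 222, 37.9 and 97.3 CPM in monolayers 1 to 5 and 8.06, 6.49 and 7.997 CPM in SOs 1 to 3 (log2 fold change of -3.86 ± 0.58, edgeR adjusted p = 0.00159). Tbx3 went the other way, at 5.05, 0.544, 1.32, 6.82 and 8.19 CPM in monolayers 1 to 5 and 105, 73.05 and 43.5 CPM in SOs 1 to 3 (log2 fold change of 4.07 ± 0.64, edgeR adjusted p = 0.00217). Both were separated between groups. Without monolayer 1 or monolayer 5, 4 factors of the list were called lower.

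Fetal liver and imprinted growth genes were called lower for 5 of 8 tested, with a median log2 fold change of -3.48. H19, an imprinted noncoding RNA, was at 57.5, 851, 1095, 1493 and 640.5 CPM in monolayers 1 to 5 and 0.701, 0 and 2.999 CPM in SOs 1 to 3 (log2 fold change of -9.35 ± 1.26, edgeR adjusted p = 0.000825), and Igf2, its neighbour, had 1 SO count against 4.42, 67.5, 43.6, 43.05 and 13.8 CPM in monolayers. Afp and Igf2bp1 fell by log2 3.82 and 3.13. Peg3 had no count in SOs 1 and 2 and was at 64.0 CPM in SO 3, and its call was lost without SO 1 or SO 2. Hmga2 was lower in every SO with a log2 fold change of -1.51 ± 0.41, under the fold threshold.

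Bile duct and progenitor markers split. Of 15 listed 11 were tested and 3 were called higher, none lower. Epcam, an epithelial adhesion protein, was at 2.53, 3.27, 34.97, 3.84 and 1.54 CPM in monolayers 1 to 5 and 245, 316 and 412 CPM in SOs 1 to 3 (log2 fold change of 5.05 ± 0.85, edgeR adjusted p = 0.00314), with monolayer 3 above the other monolayers and below every SO. Prom1 was at 22.7, 57.2, 15.5, 129.6 and 166 CPM in monolayers 1 to 5 and 1015, 1195 and 676 CPM in SOs 1 to 3 (log2 fold change of 3.62 ± 0.67, edgeR adjusted p = 0.00518). Krt19 and Krt7, the duct keratins, overlapped between groups, and so did Spp1 (log2 fold changes 0.65 ± 0.56, 0.71 ± 0.42 and 0.40 ± 0.42).

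Markers of fetal or regenerating gut epithelium gave 1 gene higher and 1 lower of 14 tested, median 0.34. This was 7.14% each way, beside 4.12% higher and 4.65% lower of all tested genes. The EGF receptor ligand Ereg was called lower at 22.7, 26.7, 9.898, 45.6 and 3.58 CPM in monolayers 1 to 5 and 1.402, 0.541 and 1.5 CPM in SOs 1 to 3. Clu overlapped, with counts near the identifier limit in both groups. Ly6a, or Sca-1, was at 1.26, 38.1, 485, 274 and 4.61 CPM in monolayers 1 to 5 and 1088, 1479 and 913 CPM in SOs 1 to 3, above every monolayer but with an edgeR adjusted p of 0.167, and was called without monolayer 3 (log2 fold change 3.85). Without monolayer 3, 3 genes of the list were called higher.

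Mesenchymal genes were lost and epithelial genes gained in part. Of 26 mesenchymal genes 14 were tested, 9 were called lower and none higher, with a median log2 fold change of -3.90. Vim, the intermediate filament of mesenchymal cells, was at 638, 253, 250.4, 138 and 198 CPM in monolayers 1 to 5 and 43.4, 34.1 and 1.999 CPM in SOs 1 to 3 (log2 fold change of -3.47 ± 0.83, edgeR adjusted p = 0.0206), lowest in SO 3. Cdh2, or N-cadherin, was at 231, 89.3, 20.8, 39.6 and 73.7 CPM in monolayers 1 to 5 and 1.75, 1.62 and 0 CPM in SOs 1 to 3 (log2 fold change of -6.21 ± 1.04, edgeR adjusted p = 0.00299). Axl, a receptor tyrosine kinase, was at 554, 552, 431, 717 and 631 CPM in monolayers 1 to 5 and 43.1, 32.5 and 6.998 CPM in SOs 1 to 3 (log2 fold change of -4.38 ± 0.54, edgeR adjusted p = 0.000501).

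The repressors Snai2, Zeb1 and Zeb2 and the matrix protein Sparc were called lower, with log2 fold changes of -3.28 ± 0.83 for Zeb1, -4.79 ± 1.00 for Zeb2 and -5.17 ± 0.71 for Sparc. Snai2 had 3 SO counts, a monolayer to SO ratio of 53.2 with a 95% counting interval of 18 to 259.7. Fn1 overlapped between groups (edgeR adjusted p = 0.117). Twist2 and S100a7a completed the list's lower calls, with 2 and 4 SO counts. The call of Zeb1 was lost without SO 2 and that of Twist2 without any 1 SO.

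Of 25 epithelial genes 21 were tested and 8 were called higher, none lower, median 1.05. Rab25, a vesicle regulator of epithelia, had 2 monolayer counts and 492, 466 and 184 CPM in SOs, a ratio of 2112 with a 95% counting interval of 584 to 17450 (edgeR adjusted p = 6.31e-06). Esrp1, the epithelial splicing regulator, was at 0, 0, 0.9898, 1.28 and 0 CPM in monolayers 1 to 5 and 70.4, 71.97 and 43.5 CPM in SOs 1 to 3 (log2 fold change of 6.72 ± 0.68, edgeR adjusted p = 0.000165). Ovol1, Spint1, St14, Cldn4 and Marveld3 rose as well, the last not without SO 1 or SO 3, and Cldn4 of tight junctions was at 0.632, 16.9, 38.9, 22.6 and 0 CPM in monolayers 1 to 5 and 197, 198 and 208 CPM in SOs 1 to 3 (log2 fold change 3.63 ± 0.94, edgeR adjusted p = 0.0303). Cldn7 was at 167 CPM in SO 3 and at most 0.541 in SOs 1 and 2.

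Cdh1, or E-cadherin, was at 1313, 1456, 789, 863 and 782 CPM in monolayers 1 to 5 and 746, 1097 and 1153 CPM in SOs 1 to 3, with full overlap (log2 fold change -0.06 ± 0.28, edgeR adjusted p = 0.919). Ocln, Krt8 and Krt18 overlapped too, with log2 fold changes of -0.07 ± 0.48, 0.22 ± 0.22 and 0.30 ± 0.23. Among families, 2 of 6 tested claudins (Cldn4 and Cldn8) and 2 of 7 keratins (Krt4 and Krt23) were called higher, and no Hox gene of 39 passed the filter. Of 18 tested S100a and annexin genes S100a14 was called higher and S100a7a lower, or 5.56% each way, near the shares of all tested genes (4.12% and 4.65%). Without SO 3 there were 3 higher.

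Matrix and integrin genes were called about as often as all genes. Of 23 listed 20 were tested, Lama3 was called higher and Nid1 lower, median 0.24. That is 5.0% each way, beside 4.12% higher and 4.65% lower of all tested genes. Lama3, a chain of epithelial laminin, had no monolayer count and 22.1, 33.6 and 42.99 CPM in SOs, at least 113-fold higher. Nid1, a basement membrane linker, was at 77.1, 43, 32.99, 19.2 and 12.8 CPM in monolayers 1 to 5 and 0.701, 0 and 1.999 CPM in SOs 1 to 3 (log2 fold change of -5.27 ± 0.89, edgeR adjusted p = 0.00315). Outside the list, Col14a1, a fibril-associated collagen, had 1 monolayer count and 325, 492 and 646 CPM in SOs, a ratio of 5019 with a 95% counting interval of 900.1 to 198300 (edgeR adjusted p = 2.78e-06).

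**Figure D3:**
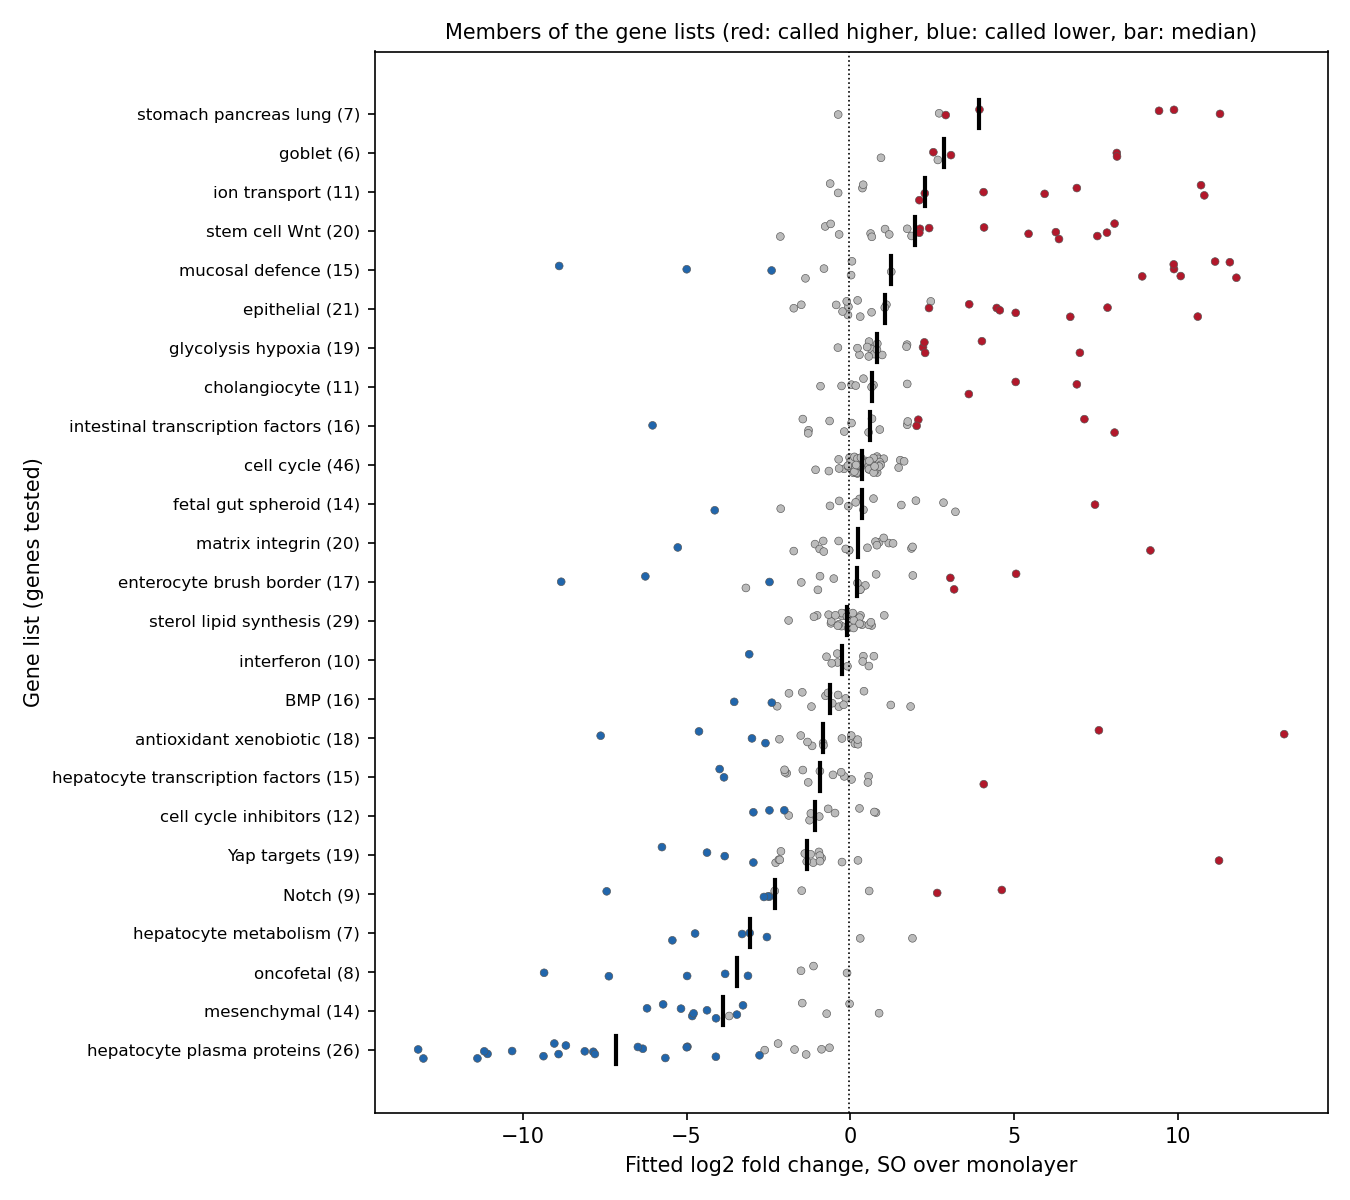
Fitted log2 fold change of every tested member of 25 gene lists, with the number tested in brackets, medians as black bars, genes called higher in red, called lower in blue and not called in grey. Plasma protein and mesenchymal genes lie on the left with medians of -7.15 and -3.90, stem cell and ion transport genes on the right with 1.99 and 2.27, and cell cycle and sterol genes cluster near 0.

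Yap and Taz targets were read because the paper studied Yap in both monolayers and SOs. It reports nuclear Yap in cells of dediHep-SOs and an almost full block of SO formation by verteporfin, a Yap inhibitor. Of 22 listed targets 19 were tested, 4 were called lower and 1 higher, with a median log2 fold change of -1.33. These RNA levels do not measure Yap protein or its location. Amotl2, a feedback scaffold of the pathway, was at 866, 481, 246, 334 and 465 CPM in monolayers 1 to 5 and 25.2, 35.7 and 39.5 CPM in SOs 1 to 3 (log2 fold change of -3.84 ± 0.47, edgeR adjusted p = 0.000443). Ccn1 was called lower at 1566, 77.3, 79.5, 30.7 and 49.2 CPM in monolayers 1 to 5 and 3.85, 2.16 and 14 CPM in SOs 1 to 3, where monolayer 1 stood far above the rest, and its call was lost without SO 1 or SO 2. Ccn2 and Ankrd1 overlapped between groups (edgeR adjusted p = 0.371 and 0.18). Rbms3, the 1 called higher, had no monolayer count and 138, 153 and 130.0 CPM in SOs, at least 499.9-fold higher. Without SO 1 or SO 2, 2 genes were called lower.

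BMP pathway genes were called lower for Id3 and Smad9 of 16 tested, none higher (median -0.62). The share called lower was 12.5%, beside 4.65% of all tested genes. SOs received the BMP inhibitor Noggin, whose part in these levels was not tested. Id1, a direct BMP target, was at 807, 689.7, 617, 743 and 585 CPM in monolayers 1 to 5 and 242, 242 and 422 CPM in SOs 1 to 3, lower in every SO but under the fold threshold (log2 fold change -1.19 ± 0.27, edgeR adjusted p = 0.0171). Id3 overlapped through SO 3. Of these calls 1 was left without SO 1, SO 2 or any of monolayers 1 to 4.

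For Notch, 4 of 9 tested genes were called lower and 2 higher, median -2.31, or -1.245 without monolayer 1. Notch3, a receptor, was at 0.632, 1.09, 1.32, 0.426 and 0.512 CPM in monolayers 1 to 5 and 33.99, 20.02 and 10.5 CPM in SOs 1 to 3 (log2 fold change of 4.63 ± 0.55, edgeR adjusted p = 0.000397), and Lfng, which modifies receptors, was higher with 2.65 ± 0.46. Notch1, the targets Hes1 and Hey1 and the feedback gene Nrarp were called lower. Hes1 was at 830.2, 273, 551, 148 and 221 CPM in monolayers 1 to 5 and 27.7, 37.9 and 147 CPM in SOs 1 to 3 (log2 fold change -2.52 ± 0.72, edgeR adjusted p = 0.0471). Without SO 1 or SO 2, or with both summed, 1 lower call was left.

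DNA replication and mitosis genes gave no call by edgeR among 46 tested, with a median log2 fold change of 0.35. At an unadjusted p under 0.05 there were 4, all higher, and DESeq2 called 0. Mki67 was at 92.2, 188, 647, 236 and 323 CPM in monolayers 1 to 5 and 251, 311 and 462 CPM in SOs 1 to 3, and the SOs lay within the range of the monolayers (edgeR adjusted p = 0.843). The summed level of the list was 1787 to 7500 CPM in monolayers and 4200 to 4567 CPM in SOs. Without monolayer 3, the monolayer with the highest Mki67, 2 were called higher and the median was 0.84. Of 12 tested cell cycle inhibitors and p53 targets 3 were called lower, among them Btg2, an antiproliferative gene, at 591, 317, 142, 320.1 and 256 CPM in monolayers 1 to 5 and 63.1, 54.7 and 57.98 CPM in SOs 1 to 3 (log2 fold change -2.47 ± 0.44, edgeR adjusted p = 0.00409). Gadd45a and Trp53inp1 were the others, and without SO 2 there was 1 such call.

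Glycolysis and hypoxia genes were called higher for 5 of 19, none lower, median 0.81. Car9, a carbonic anhydrase induced by hypoxia, had 3 monolayer counts and 22.8, 23.8 and 80.5 CPM in SOs, a ratio of 144 with a 95% counting interval of 48.9 to 704 (edgeR adjusted p = 0.000256). Adm, a vasodilator peptide, was at 6.32, 19.05, 10.2, 40.5 and 1.54 CPM in monolayers 1 to 5 and 400.2, 332 and 30.5 CPM in SOs 1 to 3 (log2 fold change 4.02 ± 0.89, edgeR adjusted p = 0.0143), and SO 3 lay within the monolayers. Pdk1, Egln3 and Hk2 were the others, and 3 calls were left without monolayer 1 and SO 1. None of 29 sterol and fatty acid synthesis genes was called by edgeR or DESeq2 (median -0.11, and 0.0242 without monolayer 3). At an unadjusted p under 0.05 there were 2, both lower.

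Antioxidant and xenobiotic genes went both ways, 2 higher and 4 lower of 18 tested. Gpx2, the gastrointestinal glutathione peroxidase, had no monolayer count and 569, 515 and 586 CPM in SOs, at least 2005-fold higher (edgeR adjusted p = 1.96e-05). Gclc, which starts glutathione synthesis, was at 1054, 529, 514, 482 and 586 CPM in monolayers 1 to 5 and 72.5, 58.4 and 106 CPM in SOs 1 to 3 (log2 fold change of -3.005 ± 0.37, edgeR adjusted p = 0.000512). Gsta1, Gsta2 and Gstm3, glutathione transferases with close paralogues, were called lower, Gstm3 with overlap. Of 10 tested interferon-stimulated genes only Ifit2 was called, lower, and that call was lost without SO 1 or SO 2.

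Markers of endothelial, immune, stellate, fibroblast and red blood cells were near the floor. Of 24 listed 9 had no count, 2 were tested and Cd68, a lysosomal protein of macrophages, was called higher at 0.632, 0.544, 0.6599, 0.426 and 0.512 CPM in monolayers 1 to 5 and 8.76, 9.2 and 4.998 CPM in SOs 1 to 3. The summed level of the list was 3.58 to 13.2 CPM in monolayers and 12.5 to 28.1 CPM in SOs, and its part in the other results was not tested. Csf1r, the other gene tested, overlapped between groups. Ptprc, the pan-leukocyte marker, had 3 monolayer counts and no SO count, Pecam1 3 and 3, and Col1a1 3 and 2.

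Across all 11470 genes, the 10 called higher with the smallest p were Duox2, Kcnq1, Col14a1, Pigr, Sftpd, Ly6d, Pkp3, Rab25, Pglyrp1 and Fxyd3. Those with the largest fitted fold at 20 CPM or more were Mmp7, Gpx2, Plekhs1, Tmprss4, Ifitm1, Pdpn, Duox2, Col14a1, Ly6d and Reg3g. Plekhs1 and the membrane protease Tmprss4 had no monolayer count and were at least 1662-fold and 1210-fold higher. Ifitm1 was lower in SO 3 than in the others, with 891, 986 and 204 CPM, and Pdpn was highest there, with 101, 163 and 398 CPM.

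Among genes called lower the smallest p belonged to Gc, Soga3, Fgb, Apoa1, Fga, Gldc, Dusp1, Sgk1, Sox11 and Cntnap5a. Sox11, a transcription factor of embryonic tissues, was at 226, 125, 143, 77.6 and 159 CPM in monolayers 1 to 5 and 4.91, 2.16 and 1.999 CPM in SOs 1 to 3 (log2 fold change of -5.52 ± 0.53, edgeR adjusted p = 0.000122). Sgk1, a serum- and glucocorticoid-induced kinase, was at 1086, 1174, 824, 1160 and 1287 CPM in monolayers 1 to 5 and 71.1, 129 and 141 CPM in SOs 1 to 3 (log2 fold change of -3.29 ± 0.32, edgeR adjusted p = 0.000112). By fitted fold the first were Alb, Ahsg, Serpina1b, Serpina1c, Dab2, Ms4a4b, Fgb, Cntnap5a, Fga and Gm8893. Dab2, an endocytic adaptor, had no SO count and was at least 432-fold lower.

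The other cultures of the series place these levels, on a scale set over all 49 libraries and with no test. Lgr5 was at 148 ± 39.9 CPM in dediHep-SOs, 122 ± 23.3 in SOs from fetal intestinal progenitor cells (FIPC-SOs) and 128 ± 29.5 in budding organoids from adult intestinal stem cells (ISC-BOs; SD, n = 3, 3 and 4). Cdx2 was at 87.7 ± 17.9 CPM in dediHep-SOs, below the 331 ± 69.5 and 336 ± 27.6 of those gut organoids. Cdx1, at 0.155 CPM in dediHep-SOs, was at 54.5 in FIPC-SOs and 99.6 in ISC-BOs.

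Lyz1 was at 1.08 CPM in dediHep-SOs, 333 in FIPC-SOs and 1387 in ISC-BOs, and Chga at 0.155, 24.7 and 229. Sftpd and Col14a1 ran the opposite way, with 378 ± 43.9 and 450.3 ± 151 CPM in dediHep-SOs, 6.26 and 0.677 in FIPC-SOs, and 0 and 0.110 in ISC-BOs. Mmp7, at 1575 ± 323 CPM in dediHep-SOs, was at 436 ± 246 in FIPC-SOs and 184 ± 75.8 in ISC-BOs.

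Aggregates of dediHeps, a suspension culture used for hepatic maturation, held Alb at 2210 ± 710 CPM against 497 ± 402 in monolayers and 4431 ± 624 in fresh hepatocytes, and Vim at 21.9 ± 12.8 CPM against 269 ± 172 in monolayers (SD, n = 3, 5 and 3). Aggregates stayed near the monolayers for Lgr5 (0.510 CPM), Mmp7 (0.270) and Kcnq1 (0.725). In dediHep-SOs the same scale gave 24.4 ± 20.0 CPM for Vim and 0 for Alb.

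**Figure D4:**
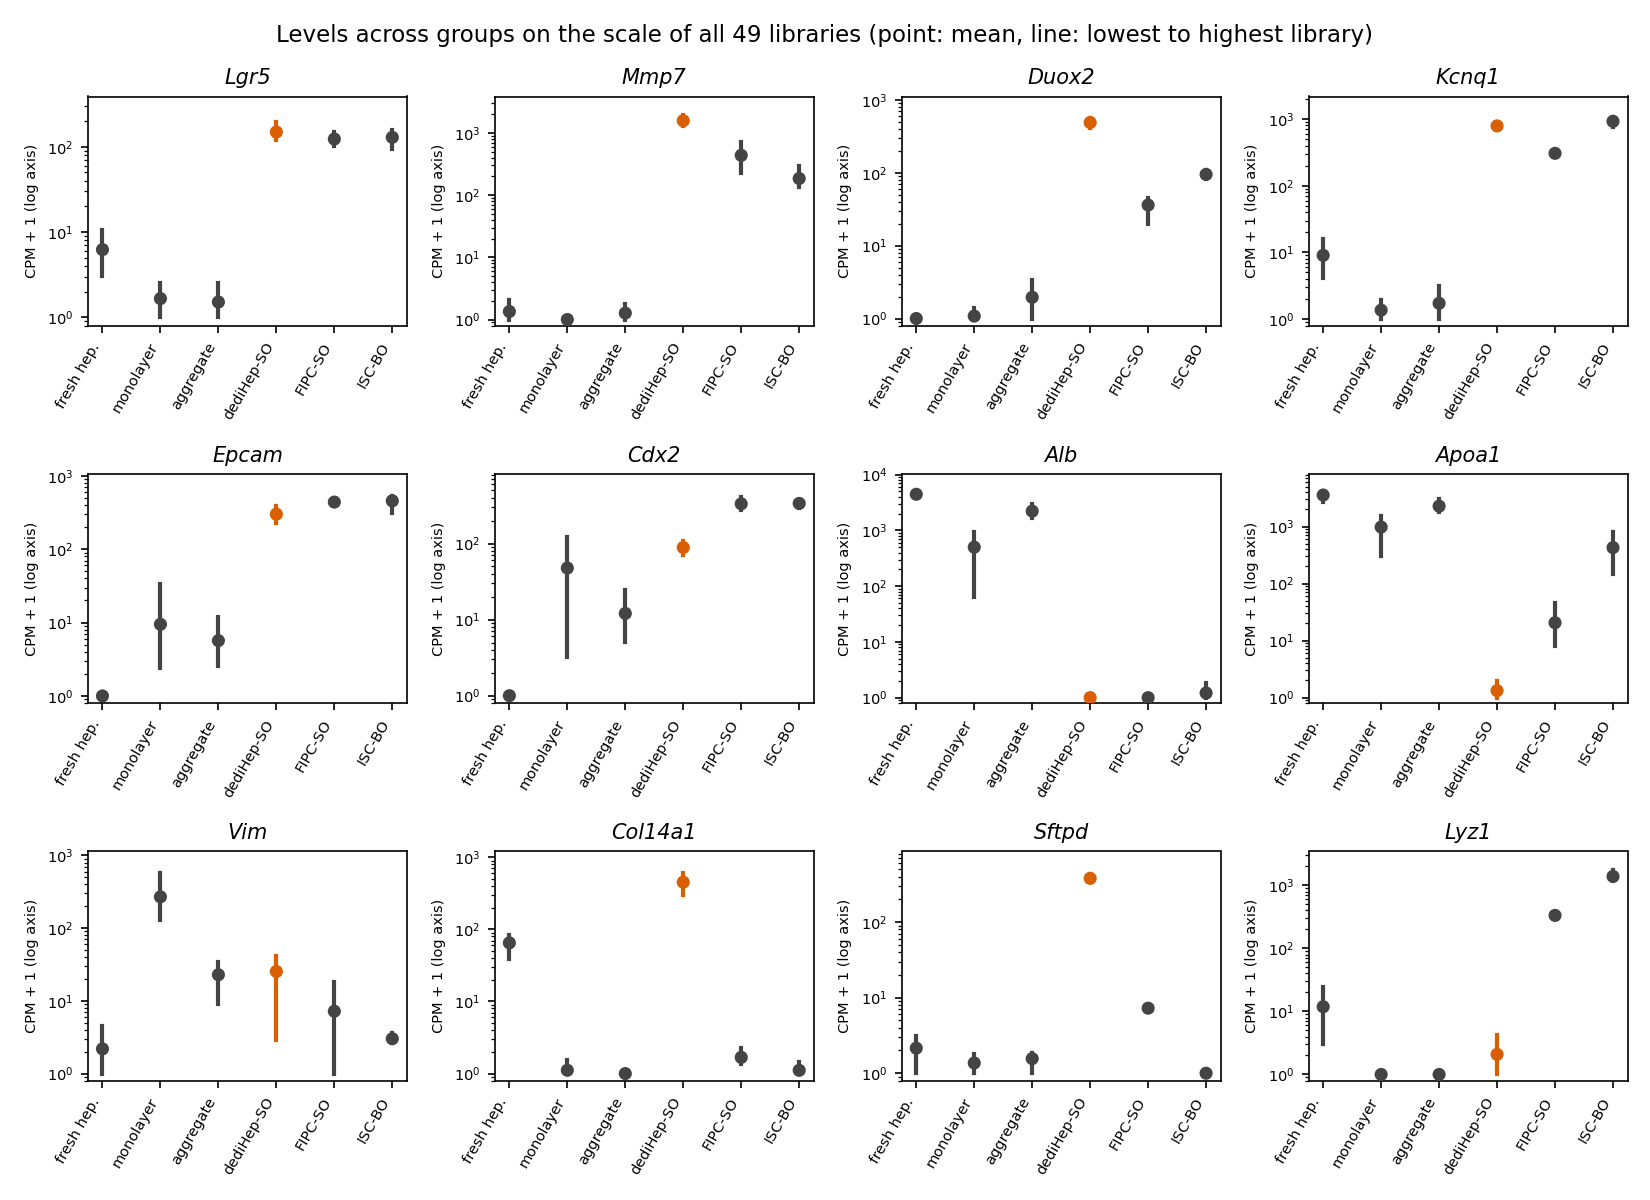
Levels of 12 genes in 6 groups (CPM + 1, log axis, scaled over all 49 libraries), with points for means and lines from the lowest to the highest library, dediHep-SOs in orange. Lgr5 in dediHep-SOs overlaps the ranges of both gut organoids, Sftpd and Col14a1 are high in dediHep-SOs and near the floor in gut organoids, and Lyz1 shows the reverse.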

How the data were processed

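RNA from 8 libraries (3 SO, 5 monolayer) was measured by CEL-Seq2. The authors deposited 1 table of raw counts of unique molecular identifiers per gene for all 49 libraries. Their processing notes and methods name bcl2fastq 2.20, Bowtie2 2.3.1, HTSeq 0.6.0, the celseq2 pipeline and GRCm38. Identifiers of 6 bases allow 4096 counts per gene and library, which underestimates the most abundant genes. Libraries were assigned by label, and a number names a library only.

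Counts were tested with edgeR 4.0.16 (R 4.3.3), TMM factors, filterByExpr and the quasi-likelihood F-test, with Benjamini-Hochberg adjustment. Calls needed an adjusted p under 0.1 and a log2 fold change over 2 in size. The standard error is the one implied by the F statistic. CPM used TMM factors of the 8 libraries, or of all 49 for the other cultures. A gene with 0 counts in a group was bounded by 3 counts over that group. The steps were tested on simulated data. Exact permutation tests enumerated 56 assignments.

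Named genes were listed members (those the study names, then called members of smallest p, then defining markers) and the 10 leading genes by p and by fold in each direction. Some listed genes are counted but not reported by name here. Members and lists were chosen with earlier results of these data known. The study's methods mention no pairing, and the reported fit used none. Deviations of same-code libraries correlated at -0.49 to 0.04, too few values to decide whether the codes pair them. Alternatives covered normalization, DESeq2 1.42.0, filters, the fit of all libraries, identifier saturation, depth, thresholds, a block and leaving out libraries.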

Additional observations from a re-analysis of the deposited data

Results flagged for a closer look

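In 131 named genes with a mean of at least 5 CPM in monolayers, each group of 5 monolayers was searched for a lowest or highest library whose gap to its neighbour on the log2(CPM + 1) scale exceeded 0.71 of the range. Chance gives about 1 in 20, and 15 were found, 10 of them in monolayer 1. Groups of 3 were not searched.

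Monolayer 1 lay low for several liver and epithelial genes. Apoa1 was at 344 CPM there against 1073 to 1665 in the other monolayers, Creb3l3 at 5.69 against 62.5 to 129 and H19 at 57.5 against 641 to 1493. Vil1 was at 36.6 CPM against 190.0 to 324, Eps8 at 0 against 16.2 to 45.5, Krt8 at 641 against 937 to 1067 and Cyp2d26 at 1.90 against 39.2 to 80.2. The same library lay high for Ccn1, with 1566 CPM against 30.7 to 79.5, for Gclc, with 1054 against 482 to 586, and for Fos, with 618 against 153 to 224.

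Monolayer 3 was highest for the epithelial genes Epcam, at 35.0 CPM against 1.54 to 3.84, and Krt19, at 547 against 90.9 to 136. It was lowest for Soga3, at 168 CPM against 285 to 349, and for Peg3, at 142 against 655 to 922. Ankrd1 was at 12.3 CPM in monolayer 5 against 208 to 552 in the others.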

How the results depend on the processing

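No gene called in the reported fit changed sign in any of the 19 other fits. Higher calls moved by over 1.5 times in count with no low-count filter (861 higher and 791 lower) and with a filter of 0.5 CPM in 3 libraries (791 higher and 705 lower). Both settings test more genes, and lower calls stayed within 1.5 times under them. Calls in both directions moved by over 1.5 times with all 49 libraries in 1 fit (770 and 908) and at any fold (909 and 942). DESeq2 called 704 and 739 and kept 99.4% of the calls it gave an adjusted p. Leaving out 1 library gave 397 to 559 higher and 361 to 655 lower, and kept from 71.8% (without SO 1) to 97.0% (without monolayer 3) of calls tested.

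The same culture code as a replicate block gave 462 higher and 458 lower calls and kept 826 of 1005. Same-code pairs gave correlations of deviations of -0.49, 0.02 and 0.04. From groups of 3 and 5 libraries, these values cannot decide whether the codes pair the libraries. Under the block the log2 fold change of Lgr4 was -0.81.

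Of 201 named genes, none that was called reversed. Uncalled genes near 0 did: over single libraries left out, log2 fold changes ranged from -4.37 to 0.15 for Myc, -1.42 to 1.35 for Lgr4, -1.46 to 3.20 for Foxa1, -0.17 to 0.12 for Cdh1, -0.21 to 0.51 for Ocln, -3.73 to 0.51 for Ccn2 and -0.0826 to 0.70 for Mki67. Without both libraries of 1 culture code, Myc was at 0.66, Cdh1 at 0.21 and Ccn2 at 0.94. The cause was not tested. Depth leaves genes under about 1 to 2 CPM undecided.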

Other observations

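The genes in these paragraphs were chosen after their values were seen, and nothing is read from them about any wider group of genes. Fos, Egr1 and Atf3, transcription factors known as immediate-early genes, were called lower in SOs. Fos was at 618, 186, 224, 172 and 153 CPM in monolayers 1 to 5 and 17.5, 9.74 and 27.99 CPM in SOs 1 to 3 (log2 fold change -3.87 ± 0.62, edgeR adjusted p = 0.00224). Egr1 fell by 3.16 and Atf3 by 2.67 on the log2 scale. Klf6 was at 349 to 1506 CPM in monolayers and 57.1 to 88.5 CPM in SOs, and Zfp36, Klf2 and Dusp1 were called lower as well. Fosb had no SO count and was at least 94.4-fold lower.

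Fkbp5, Tsc22d3 and Klf15, which are known to respond to glucocorticoids, were called lower too. Fkbp5 was at 189, 96.9, 225, 72.0 and 190 CPM in monolayers and 15.8, 16.8 and 11.5 CPM in SOs (log2 fold change -3.39 ± 0.47, edgeR adjusted p = 0.000982). Tsc22d3 fell by 2.19 on the log2 scale, and without SO 3 its log2 fold change was -1.90, under the fold threshold. Klf15 had 1 SO count against 222 monolayer counts.

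Some Sprr2 genes and the keratin gene Krt4 were called higher. Sprr2a1, Sprr2a2 and Sprr2a3 were at 198 to 290 CPM in SOs and at most 1.98 CPM in monolayers, and Sprr2b at 41.0 to 82.8 CPM in SOs, although these near-identical copies can share reads. Krt4 was at 129, 122 and 161 CPM in SOs and at most 2.31 in monolayers. On the scale of all 49 libraries and with no test, Sprr2a1 was at 229.9 CPM in dediHep-SOs, 127.7 in FIPC-SOs and 592.5 in ISC-BOs, and Krt4 at 126.7, 24.5 and 0.

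Jaml, Pf4, Blnk, Cd74, Irf8 and Klrc1 were called higher, while the leukocyte marker Ptprc had no SO count. Jaml had no monolayer count and was at 138, 105 and 59.0 CPM in SOs, and Pf4 and Blnk had none and were at least 98.4-fold and 81.3-fold higher. Cd74, which chaperones class II antigen presentation molecules, was at 25.2, 35.7 and 9.50 CPM in SOs against 0 to 2.13 CPM in monolayers, and Irf8 at 9.11, 8.66 and 22.5 CPM against 0 to 1.28. Klrc1 had 1 monolayer count and 100 SO counts. On the scale of all 49 libraries, mean levels were higher in gut organoids than in dediHep-SOs for Irf8 (12.4 CPM in dediHep-SOs, 123.8 in FIPC-SOs and 389.9 in ISC-BOs), Jaml (92.6, 157.9 and 348.0) and Blnk (19.7, 36.4 and 44.6), with no test. Pf4 (25.5, 0.215 and 0 CPM in the same order), Cd74 (21.6, 0 and 0.210) and Klrc1 (14.0, 0 and 0) ran the opposite way.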
